A study of Homo sapiens with 8 samples.

Results

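The transcripts described here are the RefSeq noncoding transcripts that single-colour Agilent arrays measured in MDAH and SKOV3 cells, with and without silencing of SFPQ, a DNA and RNA binding protein of nuclear paraspeckles. A member is a probe whose RefSeq accession begins with NR_ and which both arrays of 1 or more of the 4 groups measured well above background. Leaving aside 73 probes to NEAT1, MALAT1, AACSP1, GAS5 and the SNHG genes, the array held 3889 such probes. Of these, 2196 (56.5%) were members and 1693 reached this level in no group. They were 2196 of 29021 probes tested in all. The members stood for 1387 named genes, with 204 further probes of 132 accessions that the reference table did not name.

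MDAH (MDAH-2774) and SKOV3 are epithelial ovarian cancer cell lines, each 1 established line. Each had 2 control arrays and 2 silenced arrays, 1 with sh-SFPQ#2 and 1 with sh-SFPQ#3, delivered by lentivirus. The labels give both controls of a line as carrying control shRNA, whereas 1 control of a line is parental in the methods, so controls here are cells in which SFPQ was not silenced. All 8 arrays were on 1 slide, and the place on it cannot be told apart from the group. No source says that the samples of a group came from separate cultures, so p-values measure the spread between these samples, which may be technical, and the spread of a silenced group includes any difference between the shRNAs. All values are log2 signals scaled to the 75th percentile of their own array, and a probe is called where limma, fitted to all 4 groups, gave an adjusted p under 0.05 over all probes tested.

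RefSeq gives the prefix NR_ to transcripts without an annotated protein, a mixed collection. Long intergenic RNAs, antisense and divergent transcripts are mostly made by RNA polymerase II, and those with a known role act in the nucleus or in the cytoplasm. Host genes carry microRNAs that are cut from the primary transcript. Transcribed pseudogenes resemble their parent genes, small structured RNAs work inside ribonucleoproteins of splicing, RNA modification, tRNA and rRNA processing, telomere synthesis and protein export, and some NR_ entries are noncoding variants of protein coding genes.

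Among the members were 21 microRNA host genes, and 20 of them held mature microRNAs of the RefSeq table (GRCh38.p14) within their bounds. A selection from the hosts of the let-7 seed and from MIR31HG and MIR924HG, which are described below, is shown 5′ to 3′ and leaves out other microRNAs of the same hosts, let-7b of MIRLET7BHG among them, with the seed (bases 2 to 8) in capitals. The arrays measured the host transcripts, not these microRNAs.
hsa-let-7a-5p (MIR100HG and MIRLET7BHG): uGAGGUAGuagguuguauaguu
hsa-let-7c-5p (MIR99AHG): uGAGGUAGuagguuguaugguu
hsa-miR-4500 (MIR4500HG): uGAGGUAGuaguuucuu
hsa-miR-4458 (MIR4458HG): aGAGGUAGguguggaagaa
hsa-miR-100-5p (MIR100HG): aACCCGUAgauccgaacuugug
hsa-miR-99a-5p (MIR99AHG): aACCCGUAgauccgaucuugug
hsa-miR-125b-5p (MIR100HG and MIR99AHG): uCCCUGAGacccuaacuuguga
hsa-miR-31-5p (MIR31HG): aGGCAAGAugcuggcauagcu
hsa-miR-924 (MIR924HG): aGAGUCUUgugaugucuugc

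The seed GAGGUAG of the let-7 family lay in 5 host genes, MIR100HG, MIR99AHG, MIR4500HG, MIR4458HG and MIRLET7BHG. MIR100HG and MIR99AHG also shared the seed ACCCGUA of miR-100 and miR-99a and the whole of miR-125b-5p. miR-31-5p and miR-924 had seeds found in no other host searched, counting 5p arms and microRNAs named without an arm.

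The silenced gene was examined first. SFPQ (NM_005066) was at 3.77 ± 0.19 in MDAH controls and 2.27 ± 0.25 in silenced MDAH cells, and at 4.75 ± 0.13 and 2.74 ± 0.37 in SKOV3 cells (SD, n = 2 arrays each). The log2 change was -1.50 in MDAH (standard error 0.24, adjusted p = 0.03 from limma) and -2.01 in SKOV3 cells (adjusted p = 0.022). Epithelial keratins were bright in both lines: KRT18 was at 7.70 and 7.37 in MDAH and SKOV3 controls, and PAX8, a Müllerian lineage factor, at 3.94 and 3.56. Of 9 markers of other cell types, 6 were tested, and their summed level on a linear scale was between 1.28 and 1.87 times the 75th percentile of an array, against 374 to 688 for 11 epithelial and ovarian markers. These sums add the signals of different probes. DES was the brightest of the 6 on every array, and the leukocyte marker PTPRC was at -3.08 and -2.70 in the controls. Between the lines 4 epithelial markers were higher and 4 lower in MDAH controls, and 2 and 1 of the other 6, where 25.9% of all probes were called each way. CDH1 (E-cadherin) and WT1 were measured in MDAH but not in SKOV3 controls, and were at least 9.6-fold and 6.07-fold higher there, while FOLR1, the folate receptor, was at -2.88 in MDAH and 4.22 in SKOV3 controls. MUC16, the CA-125 antigen, was well above background on no array but those of silenced SKOV3 cells, at least 2.59-fold above the controls (adjusted p = 0.0574 from limma; 0.0364 for the mean of both lines). ALB, measured in MDAH controls alone, was at least 1.95-fold lower in silenced MDAH cells (adjusted p = 0.017 from limma).

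Detection was uneven between groups. Both arrays of MDAH controls measured 2065 (94.0%) of the 2196 members, against 1682 (76.6%) after silencing, while for SKOV3 the counts were 1625 (74.0%) in controls and 1674 (76.2%) after silencing. The MDAH controls alone measured 247 members, against 6 measured only in silenced MDAH cells, 24 only in SKOV3 controls and 26 only in silenced SKOV3 cells. Coding probes, with accessions beginning NM_, were also measured most often in MDAH controls, 96.2% against 86.7% to 87.7% in the other groups. Before scaling, the 75th percentile of the signal was 496 and 483 for MDAH controls, 405 for the sh-SFPQ#2 array and 244 for the sh-SFPQ#3 array of MDAH cells, and between 387 and 466 on the SKOV3 arrays. What these levels contributed to the calls was not tested, and the main counts are also given for the 1388 members (63.2%) that all 8 arrays measured. In a bulk sample, fewer cells with an RNA and less of it per cell cannot be told apart.

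The members were dimmer than coding probes, with a median log2 signal of -1.78 against 0.31 for the 19290 coding probes tested. Among the brightest were SNAR-A3, given below, and RNA28SN5. RNA28SN5, the 28S ribosomal RNA, was at 9.19 and 9.36 in the MDAH controls, 9.39 and 9.97 in silenced MDAH cells, 9.41 and 9.40 in the SKOV3 controls and 9.10 and 9.26 in silenced SKOV3 cells. RN7SK, which holds back the elongation factor P-TEFb, had a mean of 6.99 and RN7SL1, the RNA of the signal recognition particle, 6.73. Signals of different probes do not compare as amounts of RNA. By class, the members were 535 probes to pseudogenes, 337 antisense, 324 long intergenic (LINC), 306 other long noncoding, 273 small structured, 136 divergent or intronic and 28 host gene probes, 53 to noncoding transcripts of protein coding genes, and the unnamed ones.

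The lines differed widely in these RNAs. In the controls, 1158 of the 2196 members (52.7%) were called, beside 51.8% of all probes tested, with 755 higher and 403 lower in MDAH cells. Without the filter on dim probes the balance turned, with 758 higher and 899 lower of 3889. Among all probes 25.9% were higher and 25.9% lower. In silenced cells, on other arrays, 1078 members (49.1%) were called, beside 50.3% of all probes, and 881 were called in both sets, 878 of them in the same direction. Thus 76.1% of the calls in controls and 81.7% of those in silenced cells were shared. The matching shares over all probes were not computed, so this sharing cannot be read as particular to noncoding RNAs. Both contrasts also took the spread of a probe from 1 fit. Across members, which are not independent replicates, both line differences correlated at r = 0.91 (n = 2196), over probes of the same lines. Of the control calls, 383 were of probes not well above background on either control array of 1 line. Among the members measured on all 8 arrays, 667 of 1388 (48.1%) were called in controls, beside 48.7% of all such probes, 403 higher and 264 lower in MDAH.

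**Figure D1:**
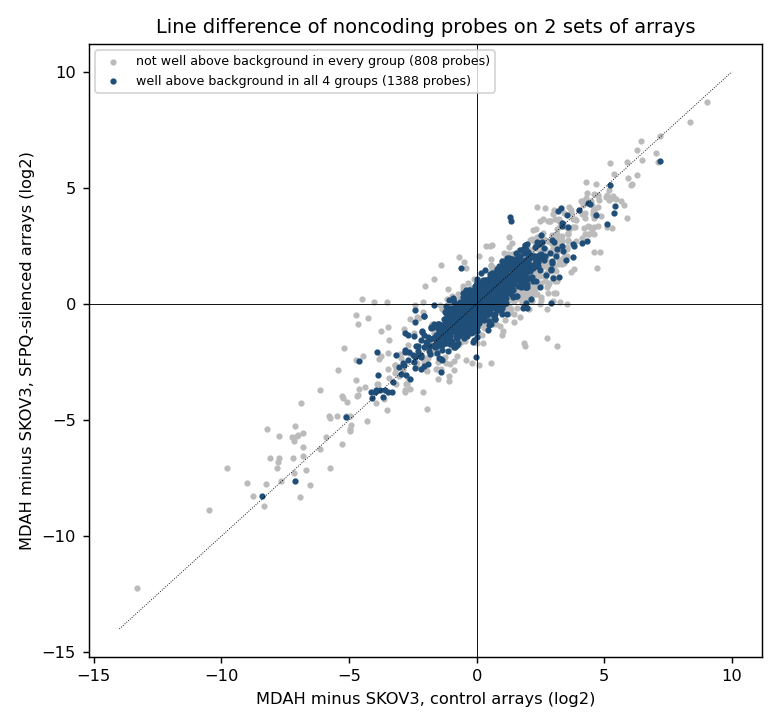
Line difference, MDAH minus SKOV3 on the log2 scale, of each noncoding probe on the control arrays (x axis) and on the SFPQ-silenced arrays (y axis), with 1388 probes well above background in all 4 groups in blue, the other probes in grey and the dotted line marking equal values. The points follow the dotted line, with r = 0.91 over the 2196 probes.

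The direction differed by class. Antisense probes were 153 higher and 47 lower in MDAH controls, with a median line difference of 0.65, and divergent or intronic probes 66 higher and 21 lower, with a median of 0.71, beside a median of 0.01 over all probes. The 28 host gene probes were 2 higher and 12 lower, and the small structured RNAs 46 higher and 51 lower, with a median of 0.01. Beside these counts, 25.9% of all probes were higher and 25.9% lower. Among members measured on all 8 arrays, the antisense probes were 70 higher and 24 lower, with a median of 0.34. The divergent or intronic ones were 38 higher and 12 lower, with a median of 0.54, and the host gene probes 0 higher and 6 lower. Under the 4 other scalings of all members, the medians ran from 0.28 to 0.61 for antisense and from 0.31 to 0.65 for divergent or intronic probes. These directions of the antisense, divergent and host gene probes were the same under the 4 other scalings, whereas the small structured RNAs were 36 higher and 64 lower, with a median of -0.14, when arrays were centred on their medians. That centring moved the median of all probes to -0.14.

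LINC02582 (NR_038340) had the largest bound on a line difference. It was at -6.90 and -6.94 in the MDAH controls, -6.36 and -5.85 in silenced MDAH cells, 6.32 and 6.48 in the SKOV3 controls and 6.45 and 5.81 in silenced SKOV3 cells. Every SKOV3 array measured it and no MDAH array did, so that it was at least 2481-fold higher in SKOV3 controls, setting the mean of the bright group against the higher of the lowest signal well above background and the probe's own on each dim array. UCA1 (NR_015379), a long noncoding RNA first described in urothelial carcinoma, was at -6.40 and -5.90 in the MDAH controls and 4.36 and 4.32 in the SKOV3 controls, at least 596-fold higher in SKOV3. LINC00624 (NR_038423) was at -6.38 and -6.21 in the MDAH controls and 3.48 and 3.53 in the SKOV3 controls, at least 333-fold higher. LINC00958 (NR_038904) was measured on all arrays, at -2.43 and -2.41 in the MDAH controls, -2.39 and -2.32 in silenced MDAH cells, 4.70 and 4.67 in the SKOV3 controls and 5.03 and 5.51 in silenced SKOV3 cells, without overlap between the lines (line difference -7.10, standard error 0.19, adjusted p = 2.09e-06 from limma). WFDC21P, a pseudogene of the whey acidic protein family, and AKR1C8, of the aldo-keto reductases, were also lower in MDAH controls, by log2 differences of -6.93 and -5.75. LETR1 and the host gene MIR31HG followed with -4.62 and -4.72.

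The 3 noncoding transcripts of 1 zinc finger gene cluster on chromosome 19 were lower in MDAH cells together. ZNF542P (NR_003127), a zinc finger pseudogene, was at -2.72 and -3.11 in the MDAH controls, -3.01 and -3.38 in silenced MDAH cells, 5.57 and 5.41 in the SKOV3 controls and 5.34 and 4.85 in silenced SKOV3 cells (line difference -8.41, standard error 0.25, adjusted p = 2.61e-06 from limma). ZNF582-DT (NR_037160), divergent to the zinc finger gene ZNF582, was at -4.65 and -4.67 in the MDAH controls, -5.18 and -4.63 in silenced MDAH cells, 3.51 and 3.87 in the SKOV3 controls and 3.87 and 3.72 in silenced SKOV3 cells (line difference -8.35, standard error 0.23, adjusted p = 2.28e-06 from limma). ZNF667-AS1 (NR_036522), antisense to ZNF667 and named after its values were seen, was at -6.72 and -6.75 in the MDAH controls, -6.18 and -5.69 in silenced MDAH cells, 1.05 and 1.09 in the SKOV3 controls and 1.002 and 1.24 in silenced SKOV3 cells. All SKOV3 arrays lay above all MDAH arrays for each of these RNAs, and ZNF667-AS1, measured on no MDAH array, was at least 61.7-fold higher in SKOV3 controls. The reference table lists 7 genes in a row from ZNF542P to ZNF667-AS1, and 6 of them had a tested probe. All 6 were lower in MDAH controls, beside 25.9% of all probes called lower. The 3 noncoding ones had been picked for their low values, so this count is partly fixed by that choice. Of the coding ones, ZNF583 and ZNF667 had log2 differences of -2.22 and -1.55. ZNF582 was measured on all SKOV3 arrays and on no MDAH array.

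The RefSeq windows around the start of 2 of these transcripts (GRCh38.p14, 5′ to 3′ on their strand) are shown because the genes moved together, with every CG in capitals.
ZNF582-DT, chr19:56393426-56393725 (+): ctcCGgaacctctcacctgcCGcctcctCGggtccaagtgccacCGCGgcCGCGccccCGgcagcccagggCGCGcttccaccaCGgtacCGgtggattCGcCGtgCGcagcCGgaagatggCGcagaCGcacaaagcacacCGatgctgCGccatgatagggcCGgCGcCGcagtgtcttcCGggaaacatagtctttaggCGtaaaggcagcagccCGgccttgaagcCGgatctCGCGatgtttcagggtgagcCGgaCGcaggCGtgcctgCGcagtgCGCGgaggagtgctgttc
ZNF667-AS1, chr19:56477624-56477923 (+): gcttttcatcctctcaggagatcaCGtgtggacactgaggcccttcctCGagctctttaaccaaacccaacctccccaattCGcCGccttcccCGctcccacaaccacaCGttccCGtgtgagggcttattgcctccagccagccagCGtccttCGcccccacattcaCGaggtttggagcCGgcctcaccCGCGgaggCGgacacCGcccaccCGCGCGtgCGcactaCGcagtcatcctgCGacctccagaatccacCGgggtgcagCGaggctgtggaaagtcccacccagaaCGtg
The first window holds 35 CG, which 14.1% of the 35116 windows in the table reach, and the second 24, which 33.9% reach. Both strands hold the same CG. The ZNF582-DT window shares 241 bases with that of ZNF582 on the other strand. The arrays did not measure methylation or binding at these windows.

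Other RNAs were higher in MDAH cells. FAR2P1 (NR_026758), a pseudogene of a fatty acyl-CoA reductase, was at 4.16 and 3.83 in the MDAH controls, 3.59 and 3.43 in silenced MDAH cells, -3.09 and -3.27 in the SKOV3 controls and -3.23 and -2.02 in silenced SKOV3 cells (line difference 7.18, standard error 0.38, adjusted p = 1.89e-05 from limma), although 1 of its 5 probes had the opposite direction. MNX1-AS1 (NR_038835), antisense to the homeobox gene MNX1, was at 3.33 and 3.28 in the MDAH controls, 3.43 and 3.15 in silenced MDAH cells, -1.88 and -1.98 in the SKOV3 controls and -1.78 and -1.93 in silenced SKOV3 cells (line difference 5.23, standard error 0.17, adjusted p = 3.37e-06 from limma). KRT19P2, a pseudogene of keratin 19, differed by 5.43, and KRT19 itself by 4.75 on the log2 scale, and these near-identical genes may share signal. PSORS1C3 of the psoriasis susceptibility locus, NR_024377, C10orf143, GLIDR and HDHD5-AS1 were higher by 5.39, 5.12, 4.69, 4.36 and 4.32. Of 209 called genes with several probes, 193 had every probe in 1 direction.

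**Figure D2:**
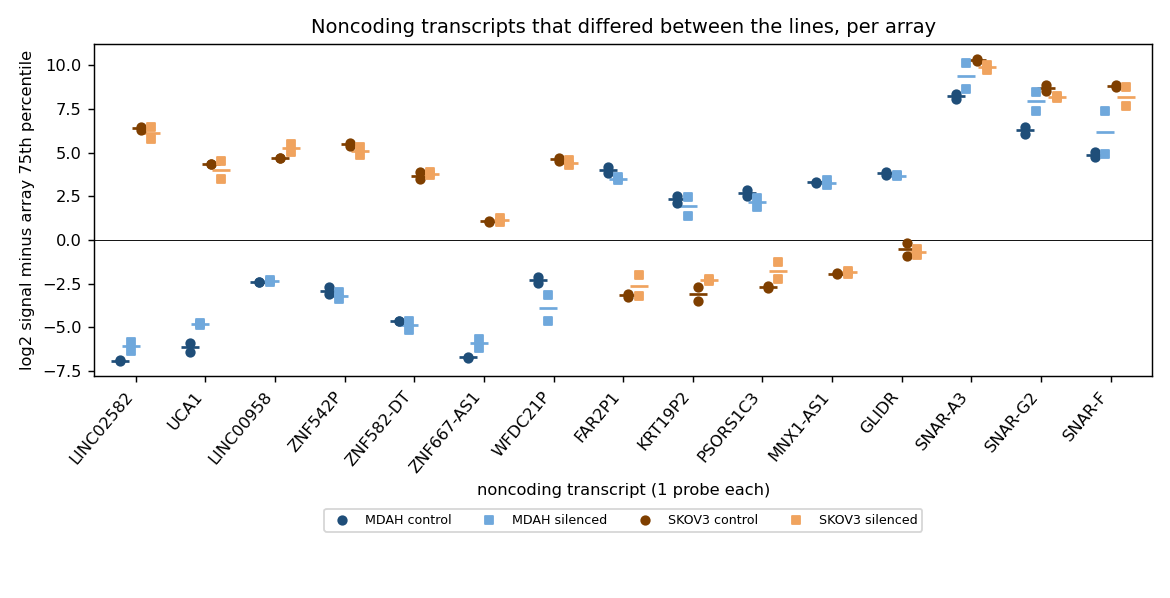
Log2 signal scaled to each array's 75th percentile (y axis) of 15 noncoding transcripts (x axis), with 1 point per array, circles for controls, squares for silenced cells and a dash for the mean of 2 arrays. For the first 7 transcripts all SKOV3 arrays lie above all MDAH arrays, for the next 5 all MDAH arrays lie above, and SNAR-A3, SNAR-G2 and SNAR-F are higher in SKOV3 than in MDAH controls.

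In a list of 22 microRNA hosts and imprinted or developmental RNAs, 16 were tested, and 5 were higher and 6 lower in MDAH controls, beside 25.9% of all probes each way. HOXA11-AS, antisense to a HOX gene of the Müllerian duct, was at 0.51 and 1.07 in the MDAH controls and -4.85 and -6.15 in the SKOV3 controls, at least 27.4-fold higher in MDAH. HOTAIR and HOTAIRM1, of the HOXC and HOXA clusters, differed by 1.44 and 1.47, the 7 probes of HOTAIR ranging from -0.26 to 4.25 with 6 called higher. IPW, an imprinted RNA of the Prader-Willi region, was lower in MDAH controls by the brightest of its 7 probes, which 1 MDAH control array measured, while the probe that all 8 arrays measured had -0.85 (adjusted p = 0.0808 from limma). MIR100HG was at -5.46 and -4.63 in the MDAH controls and 2.63 and 2.78 in the SKOV3 controls, where 1 MDAH control array measured it (adjusted p = 4.50e-05 from limma), and MIR503HG differed by -3.29, while the imprinted RNAs H19 and MEG3 had values of 0.36 (adjusted p = 0.155 from limma) and -0.18 (adjusted p = 0.471 from limma). In a list of 31 cancer and stress associated RNAs, 24 were tested, 10 higher and 7 lower in MDAH controls, beside the same 25.9% each way. WT1-AS, antisense to the Wilms tumour gene, was at least 20.5-fold higher there, HCP5 of the HLA region was higher by 3.11 and NBR2 lower by a log2 difference of -1.38 (1 of its 2 probes was called, the other having -0.48). NORAD, which binds Pumilio proteins, had a line difference of -0.19 (adjusted p = 0.707 from limma).

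Structured RNAs of ribonucleoproteins were a list of 29, of which 21 were tested, 7 higher and 3 lower in MDAH controls, 10 of 21 beside 51.8% of all probes called. RPPH1, the RNA of ribonuclease P, was higher by 1.40 and the vault RNA VTRNA1-3 by 1.68. TERC, the template RNA of telomerase, was lower by a log2 difference of -1.47 (adjusted p = 0.00563 from limma). RMRP, of the ribonuclease that processes ribosomal RNA, RN7SK, RN7SL1 and RNU4ATAC, of the minor spliceosome, had line differences of -0.57, -0.14, 0.02 and -0.16 and were not called. Many of these RNAs lack a poly(A) tail, and how they were primed was not examined.

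The SNAR family, small noncoding RNAs present in near-identical copies that probes may not separate, was among the brightest of the members and differed between the lines. All 7 SNAR genes tested were called lower in MDAH controls, beside 25.9% of all probes. Their log2 differences ran from -3.92 for SNAR-F to -2.08 for SNAR-B2 (highest adjusted p = 0.0121 from limma). SNAR-A3 was at 8.06 and 8.39 in the MDAH controls, 8.63 and 10.14 in silenced MDAH cells, 10.24 and 10.37 in the SKOV3 controls and 9.75 and 10.05 in silenced SKOV3 cells. SNAR-F was at 4.73 and 5.05 in the MDAH controls, 4.94 and 7.39 in silenced MDAH cells, 8.75 and 8.87 in the SKOV3 controls and 7.69 and 8.74 in silenced SKOV3 cells. The sh-SFPQ#3 array of MDAH cells, the dimmest before scaling, lay near the SKOV3 arrays for both, and the sh-SFPQ#2 array near the MDAH controls. The change on silencing in MDAH cells was between 1.08 and 1.65, with no gene called (lowest adjusted p = 0.0714 from limma), and in silenced cells the line difference was between -2.05 and -0.26, called for SNAR-G1 alone. SNAR-F is named by the rule, and the others were added after their values were seen.

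Spread and size of change were set against coding probes of like signal, placing each member among the coding probes of its bin of 1 log2 unit of mean signal (at least 20 per bin). Over 1384 of the 1388 members that all 8 arrays measured, the median percentile was 52.6 for the residual SD within groups, 49.8 for the size of the line difference in controls, 43.9 for the size of the change on silencing in MDAH and 50.7 in SKOV3 cells, where 50 would be the middle of the coding probes. The residual SD had a median of 0.22 in members and 0.19 in coding probes. With the sign kept, members lay at a median percentile of 61.2 for the line difference in controls and 37.8 for silencing in MDAH, and at 50.2 for silencing in SKOV3. In the bin from 8 to 9 the residual SD was 0.61 over 4 members and 0.15 over 115 coding probes, and the line difference 2.24 against 0.28, and 3 of the 4 members there were SNAR genes. These are descriptions without a test, and members of a bin can still differ in brightness.

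**Figure D3:**
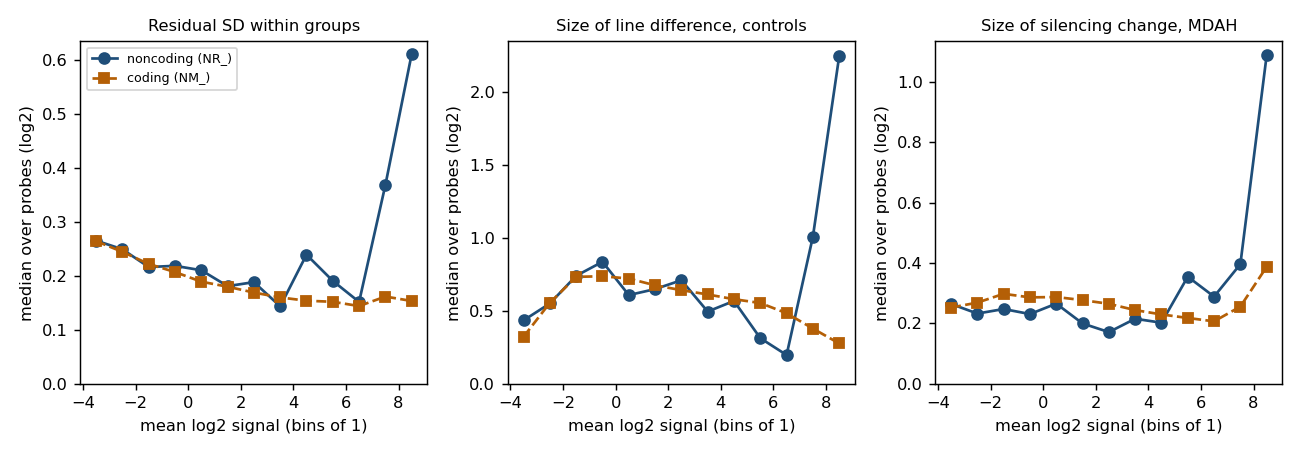
Median over probes, in log2 units, of the residual SD within groups (left), of the size of the line difference in controls (middle) and of the size of the change on silencing in MDAH cells (right), by bins of mean log2 signal, for noncoding (circles) and coding (squares) probes measured on all 8 arrays. All 3 medians are higher for noncoding probes in both bins from 7 to 9, which hold 11 of them. From 5 to 7 their line difference is lower (0.31 against 0.55 and 0.20 against 0.48) and their MDAH change higher (0.35 against 0.22 and 0.29 against 0.21), and from -3 to 5 their MDAH change is lower in every bin.

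Far fewer members were called on silencing than between the lines. In MDAH cells 71 members (3.23%) were called, beside 2.69% of all probes, 12 higher and 59 lower, where 0.582% of all probes were higher and 2.11% lower. Of the 59 lower, 18 were measured on all 4 arrays compared, and of the 12 higher, 8. The remaining 4 included LINC00624, which no MDAH array measured well above background and which has no fold here. Of the members measured on all 8 arrays, 17 of 1388 (1.22%) were called, beside 1.19% of such probes, 6 higher and 11 lower. When arrays were centred on their medians, a step that raised the median change over all probes from 0.07 to 0.18, 60 members were called, 22 higher and 38 lower (63.3% lower, against 83.1%). The count was 0 without MDAH control 1, 5 without MDAH control 2 and 146 without the sh-SFPQ#2 array, while without the sh-SFPQ#3 array it was 38 and without either SKOV3 control 45. The matching counts over all probes with an array left out were not computed. At an unadjusted p under 0.05 in limma there were 439 of the 2196 members, beside 6231 of all 29021 probes.

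In SKOV3 cells 41 members (1.87%) were called, beside 1.3% of all probes, 11 higher and 30 lower, where 0.517% of all probes were higher and 0.786% lower. On probes measured by all 8 arrays the count was 11 (0.793%), beside 0.579%, 6 higher and 5 lower. It was 6 without SKOV3 control 1, 15 without SKOV3 control 2, 8 without either MDAH control, 104 (57 higher and 47 lower) without the sh-SFPQ#2 array and 18 without the sh-SFPQ#3 array of SKOV3 cells, and 0 when the SKOV3 arrays were fitted alone. In the mean of both lines 145 members (6.60%) were called, beside 6.45% of all probes, 44 higher and 101 lower, where 2.33% of all probes were higher and 4.12% lower. On probes measured by all 8 arrays there were 53 (3.82%), beside 4.46%, 27 higher and 26 lower. Centring on the median gave 62 higher and 82 lower in this mean (56.9% lower, against 69.7%). Without MDAH control 1 the count was 19, without MDAH control 2 it was 26, without SKOV3 control 1 and 2 it was 58 and 67, without the sh-SFPQ#3 arrays of MDAH and SKOV3 96 and 82, and without the sh-SFPQ#2 arrays 215 and 193. For SKOV3 and for the mean, too, counts over all probes with an array left out were not computed.

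Among host genes of microRNAs, 8 of 28 probes, of 7 genes, were called lower and 0 higher in the mean of both lines, beside 4.12% and 2.33% of all probes, with a median change of -0.39 beside 0.02 over all probes, and of the 14 measured by all 8 arrays 1 was lower. The median of these 14 was -0.09. Under the 4 other scalings 5 to 7 of the 28 fell and 0 rose, with medians from -0.35 to -0.21. MIR31HG (NR_027054) was at -2.50 and -2.23 in the MDAH controls, -4.39 and -4.67 in silenced MDAH cells, 2.70 and 2.01 in the SKOV3 controls and -0.45 and -2.03 in silenced SKOV3 cells, so that the silenced arrays lay below the controls in each line. It changed by -3.59 in SKOV3 cells (adjusted p = 0.0303 from limma) and was at least 3.23-fold lower in silenced MDAH cells (adjusted p = 0.0807 from limma), where no array measured it. MIR924HG (NR_024391) was at -2.19 and -2.25 in the MDAH controls, -5.92 and -5.96 in silenced MDAH cells, -0.38 and -0.60 in the SKOV3 controls and -3.78 and -6.40 in silenced SKOV3 cells. No silenced MDAH array and 1 silenced SKOV3 array measured it, and it was at least 3.57-fold lower in MDAH (adjusted p = 0.0547 from limma) and called lower in SKOV3 cells (adjusted p = 0.0423 from limma). MIR4500HG (NR_033829), whose microRNA has the let-7 seed shown above, was at -4.48 and -4.17 in the MDAH controls, -6.46 and -5.94 in silenced MDAH cells, -1.88 and -2.57 in the SKOV3 controls and -6.24 and -6.37 in silenced SKOV3 cells. No silenced array measured it, and it was at least 3.74-fold lower in silenced SKOV3 cells and called lower in MDAH cells too (adjusted p = 0.0268 from limma), with no fold bound above 1 there. Of the other hosts with that seed, MIR100HG and MIR99AHG were called in the mean (adjusted p = 0.042 and 0.0102 from limma) but barely measured in MDAH cells, on 1 control array and on none. In SKOV3 cells MIR100HG changed by -2.73 (adjusted p = 0.061 from limma; its second probe had -1.05) and MIR99AHG was at least 2.12-fold lower (adjusted p = 0.0063 from limma). MIRLET7BHG was at -0.47 (adjusted p = 0.135 from limma), and MIR4458HG at 0.06 (adjusted p = 0.804 from limma). MIR17HG, which carries the miR-17-92 cluster, had a value of -0.35 (adjusted p = 0.249 from limma), and MIR9-2HG, which no SKOV3 array measured, changed by -1.06 in MDAH cells (adjusted p = 0.032 from limma). MIR4435-2HG had 3 probes: that to NR_024373 had -0.12, and both to NR_015395 fell, by 2.93 (adjusted p = 0.0162 from limma) and 2.97 (adjusted p = 0.0390 from limma), the latter with 1 silenced array of each line not well above background. MIR924HG, MIR99AHG and MIR9-2HG were named after their values were seen.

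NR_015409 and MRPL42P5 were among the RNAs called lower in each line. NR_015409, which the reference table does not name, was at -1.26 and -1.13 in the MDAH controls, -5.42 and -4.39 in silenced MDAH cells, -1.07 and -0.86 in the SKOV3 controls and -4.56 and -4.76 in silenced SKOV3 cells, and was at least 7.25-fold lower in silenced MDAH and at least 8.99-fold lower in silenced SKOV3 cells (mean log2 change of both lines -3.70, standard error 0.23, adjusted p = 0.00253 from limma). Its other probe changed by -1.63 in MDAH and -0.68 in SKOV3 cells. MRPL42P5 (NR_002208), a pseudogene of a mitochondrial ribosomal protein, was at -0.58 and -0.65 in the MDAH controls, -1.63 and -1.87 in silenced MDAH cells, -0.39 and -0.43 in the SKOV3 controls and -1.60 and -1.72 in silenced SKOV3 cells, without overlap in either line (mean log2 change of both lines -1.20, standard error 0.12, adjusted p = 0.00522 from limma). MYLK-AS1, antisense to myosin light chain kinase, fell by 1.66 in the mean of both lines (adjusted p = 0.00788 from limma), LINC00882 by 1.75 (adjusted p = 0.0313) and the zinc finger pseudogene ZNF767P by 1.14 (adjusted p = 0.00967), where its 3 probes ranged from -1.14 to -0.31 and 1 was called. In MDAH cells AQP7P3, an aquaporin pseudogene, changed by -2.83, NR_027393 by -2.09, SNORA11D, a box H/ACA guide of pseudouridylation, by -1.63 and CASTOR3P by -1.49. IGFBP7-AS1 and HULC, a long noncoding RNA named for liver cancer, were at least 3.09-fold and at least 2.49-fold lower there.

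In SKOV3 cells the unnamed NR_015367 was at 4.19 and 4.23 in controls and 2.26 and 1.15 after silencing (log2 change -2.50, standard error 0.33, adjusted p = 0.0271 from limma). On the MDAH arrays it lay between 5.43 and 5.57. IPW changed by -1.75 and LOC100507412 by -2.24. LINC00691 was at least 3.82-fold lower. The 7 probes of IPW had SKOV3 changes from -1.90 to 0.23.

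Other RNAs rose. LINC01963 (NR_037701) was at -0.56 and -0.67 in the MDAH controls, 0.63 and 0.47 in silenced MDAH cells, -0.23 and 0.02 in the SKOV3 controls and 1.03 and 0.96 in silenced SKOV3 cells, and both silenced arrays lay above both controls in each line (mean log2 change of both lines 1.13, standard error 0.12, adjusted p = 0.00655 from limma). HCP5 (NR_040662), a transcript between HLA class I genes, was at -0.33 and -0.06 in the MDAH controls, 0.39 and 0.77 in silenced MDAH cells, -2.97 and -3.65 in the SKOV3 controls and -1.42 and -1.59 in silenced SKOV3 cells (mean log2 change of both lines 1.29, standard error 0.19, adjusted p = 0.0174 from limma), and HLA-J, a class I pseudogene, rose by 1.14 in SKOV3 cells (adjusted p = 0.0407 from limma) with 0.38 in MDAH (adjusted p = 0.273 from limma). UBE2Q2P2, a pseudogene of a ubiquitin conjugating enzyme, rose by 1.09 in the mean, while its second probe had 0.26 there and -0.03 in MDAH cells, against 0.83. EOLA2-DT rose by 2.40 in SKOV3 cells, the highest of its 4 probes and the 1 called (the lowest had 1.204), and was at 0.12 in MDAH cells, where this brightest probe went against 2 of the others. KALRN and MAPT-IT1, a noncoding variant and an intronic transcript of neuronal genes, rose by 1.47 and 1.33 in MDAH cells.

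**Figure D4:**
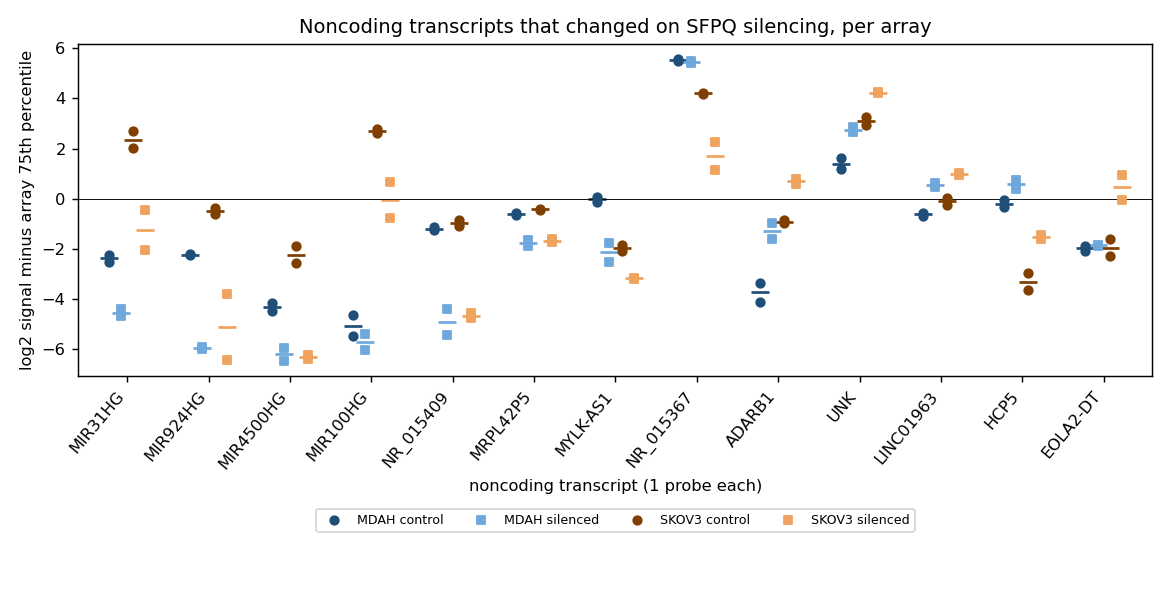
Log2 signal scaled to each array's 75th percentile (y axis) of 13 noncoding transcripts (x axis), with 1 point per array, circles for controls, squares for silenced cells and a dash for the mean of 2 arrays. MIR31HG, MIR924HG, MIR4500HG, NR_015409, MRPL42P5 and MYLK-AS1 have both silenced arrays below both controls in each line, and ADARB1, UNK, LINC01963 and HCP5 have them above.

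Beside 2.33% of all probes higher and 4.12% lower, the cancer and stress list held 2 of 24 RNAs that rose in the mean of both lines, HCP5 and ZFAS1, a snoRNA host (0.49, adjusted p = 0.0458 from limma). It held 2 that fell, CDKN2B-AS1 at the INK4 locus (adjusted p = 0.0392 from limma), which no SKOV3 array measured and which changed by -1.53 in MDAH cells, and ST7-AS1 (-0.82, adjusted p = 0.0207 from limma), and its median was 0.03. These counts take the brightest probe of each gene. The second probe of CDKN2B-AS1 had -0.04, and of the dimmer probes of other genes 1 each of CASC2, FTX and JPX was called lower and 1 of LINC-PINT higher (adjusted p = 0.0218, 0.00311, 0.00341 and 0.0170 from limma), as seen after the values were known. CYTOR, DANCR and NORAD had values of -0.11, -0.26 and -0.24 and were not called. In the list of hosts and imprinted RNAs, MIR31HG and MIR100HG fell, and KCNQ1OT1, the imprinted antisense of KCNQ1, had -1.49 (adjusted p = 0.0541 from limma). Among the 21 structured RNAs, SCARNA12, a guide RNA of Cajal bodies, fell by 0.96 (adjusted p = 0.022 from limma), and the list's median was -0.06. TERC, RMRP, RPPH1 and RN7SK had -0.23, 0.07, -0.13 and 0.08 without a call.

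Proteins that process or degrade such RNAs were a list of 56 coding genes, all tested, among them Microprocessor, Integrator, exosome and cap-binding subunits. In the mean of both lines 2 of the 56 were higher and 0 lower, beside 2.33% of all probes higher and 4.12% lower. The 2 were the nuclear exonuclease XRN2, by 0.53 (adjusted p = 0.0346 from limma), and the exosome nuclease DIS3, by 0.74 (adjusted p = 0.0408 from limma). The median of the list was 0.06, beside 0.02 over all probes. In MDAH cells XRN2 alone was called, higher by 0.82 (adjusted p = 0.0406 from limma), and between the lines 10 were higher and 14 lower in MDAH controls, where 51.8% of all probes were called.

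Antisense, divergent and intronic transcripts were set beside the coding gene of the same name, for 284 pairs with a tested coding probe. In controls, 171 of these RNAs were called between the lines, beside 51.8% of all probes and 54.8% of coding probes, 107 together with the coding gene, of which 73 went the same way and 34 the opposite way, and across the pairs, each measured on the same arrays, the line differences correlated at r = 0.50. Over all pairs, called or not, 160 of the 284 had line differences of the same sign. Of the 63 divergent pairs 30 did, while their line differences correlated at r = 0.71. Of the 29 divergent pairs with both called, 18 went the same way and 11 the opposite way. APCDD1L-DT was at least 184-fold higher in SKOV3 controls, and DPP10-AS1 and PRKCQ-AS1 were at least 119-fold and 85.3-fold higher in MDAH controls. The coding genes APCDD1L, DPP10, PRKCQ and WT1 were, like these RNAs and WT1-AS, measured in 1 line of the controls only, each in the line of its partner. These pairs were named after their values were seen. BDNF-AS was at least 4.38-fold higher in MDAH controls where BDNF, a neurotrophin, had -2.09, and SLC20A1-DT had 2.64 against -2.64 for SLC20A1, a phosphate transporter.

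On silencing, in the mean of both lines, 22 of the 284 were called, beside 6.45% of all probes, and in 3 of these the coding gene was called too. FGF13-AS1 and FGF13 (the latter measured in MDAH cells only) were both lower, FGF13-AS1 by at least 1.26-fold in MDAH and 1.43-fold in SKOV3 cells. No silenced array and 1 SKOV3 control array measured it. IQCH-AS1 was lower, with 1 silenced array of each line measuring it, and the probe to IQCH was higher and well above background in silenced cells only. ZNF407-AS1 had -0.61 and ZNF407 0.80. The correlation across the pairs was -0.10. By class, 22 of 337 antisense probes fell and 3 rose in this mean, beside 4.12% and 2.33% of all probes, with a median of -0.12, while on probes measured by all 8 arrays 5 fell and 0 rose. In MDAH cells 14 fell and 0 rose, beside 2.11% of all probes lower and 0.582% higher, and 2 of the 14 were measured by all 8 arrays. With arrays centred on their medians, 9 antisense probes fell and 2 rose in MDAH cells. In the mean of both lines 16 then fell and 5 rose. TMEM161B-DT, divergent to TMEM161B and named after its values were seen, was at 2.37 and 2.23 in the MDAH controls, 0.33 and -1.46 in silenced MDAH cells, -0.0023 and -0.12 in the SKOV3 controls and -3.43 and -6.02 in silenced SKOV3 cells, so that controls and silenced cells did not overlap in either line (adjusted p = 0.0217 from limma for the mean). The lower of both silenced SKOV3 arrays was not well above background.

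Noncoding variants were compared with the coding probe of the same gene, the brightest one, for 33 probes of 25 genes, in a fit of the difference between both probes over 4719 pairs of probes of 1 gene. In the mean of both lines 8 of the 33 pairs differed, in 6 genes, beside 5.89% of all pairs, and in MDAH cells 4 of 33, beside 1.57%. The SKOV3 change was called for 0 of the 33 by limma after adjustment, beside 6 of the 4719. ADARB1 encodes an adenosine deaminase of double-stranded RNA. Its probe NR_027673 was at -4.10 and -3.35 in the MDAH controls, -1.61 and -0.97 in silenced MDAH cells, -0.97 and -0.85 in the SKOV3 controls and 0.80 and 0.61 in silenced SKOV3 cells, and the changes in the mean were 2.02 for the noncoding probe and -2.26 for the coding probe (difference 4.29, standard error 0.48, adjusted p = 0.012 from limma). UNK, an RNA binding zinc finger protein, had 1.23 for the noncoding probe and -0.40 for the coding probe (difference 1.64, standard error 0.16, adjusted p = 0.0102 from limma). XPA, of nucleotide excision repair, had 0.57 for the noncoding probe and -0.14 for the coding probe (difference 0.71, standard error 0.09, adjusted p = 0.0154 from limma).

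The opposite order was seen in the other 3 genes. SPIN3, a spindlin, had -0.93 for the noncoding probe and 0.88 for the coding probe (difference -1.81, standard error 0.18, adjusted p = 0.0102 from limma). BACH1, a repressor of haem oxygenase, had -1.01 for the noncoding probe and 0.73 for the coding probe (difference -1.74, standard error 0.20, adjusted p = 0.012 from limma). SEM1, a small proteasome subunit, had 3 of its 4 noncoding probes called against the coding probe, all 4 lying below it, with changes of -1.47 for the noncoding probe and -0.19 for the coding probe (difference -1.28, standard error 0.13, adjusted p = 0.0102 from limma) for the pair of smallest p. The MDAH count was 0 without either MDAH control and between 1 and 7 without any other array, and the count for both lines was 0 without either MDAH control, 5 and 3 without SKOV3 control 1 and 2, and between 6 and 11 otherwise. The probes interrogate different parts of a gene, so that levels were not compared.

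**Figure D5:**
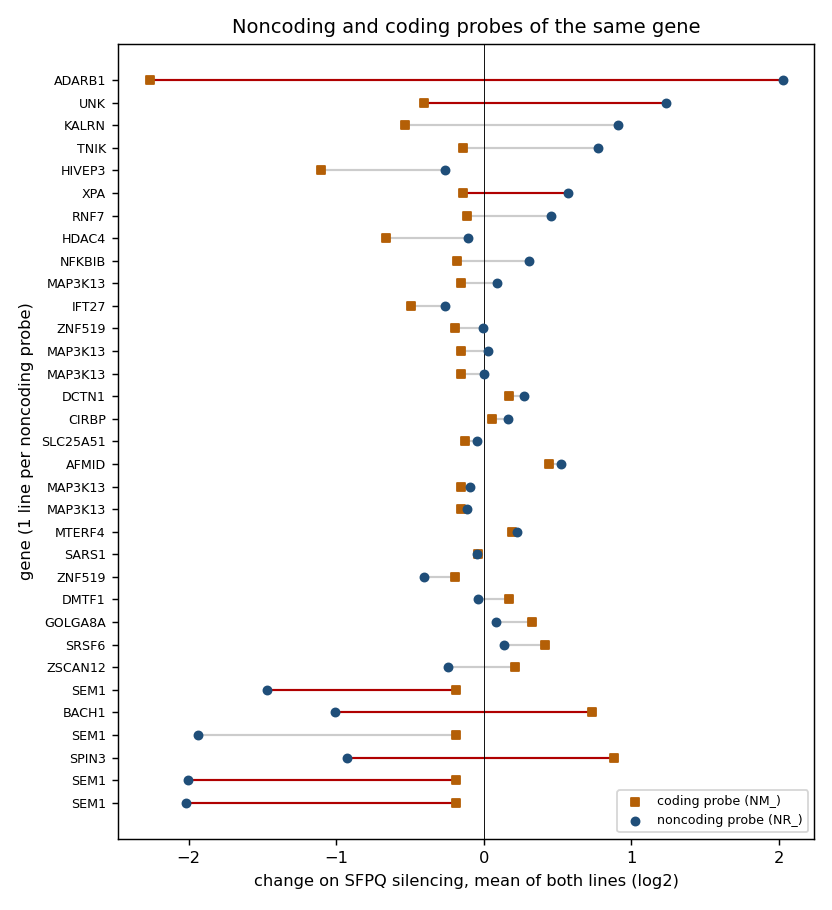
Log2 change on SFPQ silencing, mean of both lines (x axis), of the noncoding (circles) and the brightest coding probe (squares) of the same gene, with 1 row for each of 33 noncoding probes (y axis) and red lines where the difference was called. ADARB1 shows the widest gap, 2.02 against -2.26, and 3 of the 4 SEM1 probes are called.

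The change on silencing in MDAH minus that in SKOV3 cells was called for 4 members, beside 0.145% of all probes. It was called for 0 of the 1388 measured on all 8 arrays. At an unadjusted p under 0.05 by limma there were 159 of the 1388, beside 1674 of 15331 coding probes so measured. These 4, MIR99AHG, LINC01994, LOC100507053 and WDR11-DT, were each measured in 1 line only. MIR99AHG, the host of let-7c, miR-99a and miR-125b, was at -7.05 and -7.08 in the MDAH controls, -6.50 and -6.01 in silenced MDAH cells, -2.90 and -3.20 in the SKOV3 controls and -6.27 and -6.41 in silenced SKOV3 cells, with no MDAH array well above background, and was at least 2.12-fold lower in silenced SKOV3 cells.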

How the data were processed

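Labelled RNA of 8 cell samples was measured on single-colour Agilent arrays. The deposited intensity values were spot signals that the authors' scanner software, Feature Extraction (11.5.1.1 in the file headers, 10.7.3.1 in the submitters' processing notes), had background-corrected. The authors' deposited log2 table was found to hold quantile-normalized log2 values minus the median of each probe (r over 0.999 with values recomputed here) and served as an alternative.

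Control spots and outlier spots were left out, spots of 1 probe averaged, and the log2 signal of each array reduced by its 75th percentile. Of 50599 probes, 29021 that both arrays of 1 or more groups measured well above background were tested with limma 3.58.1 (R 4.3.3) over all 4 groups (4 residual degrees of freedom), with Benjamini-Hochberg adjustment over all tested probes. The share of probes well above background was between 47.7% and 57.0% per array, no spot was saturated, and the small number of arrays limits precision. A gene was given by its brightest probe. The step was tested on simulated data with known changes.

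Symbols, microRNAs and promoters came from RefSeq tables (GRCh38.p14), matched by accession without version, and 1992 of the 2196 members had a symbol. The file headers name build hg19, and no coordinates were taken from the arrays. Named genes were the tested genes of 3 lists of noncoding RNAs (microRNA hosts and imprinted RNAs, cancer and stress RNAs, structured RNAs) and, among called members whose groups did not overlap, the 8 highest and 8 lowest line differences in controls, the 5 highest and 5 lowest per silencing contrast, the 3 highest and 3 lowest differences between lines, with the 3 largest bounds apart. Lists of markers and of processing proteins were also counted. The members, lists and some named genes were chosen with earlier results of these data known. Alternatives were other scalings, background correction, filters, variance models, a replicate block, single-line fits and leaving out each array.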

Additional observations from a re-analysis of the deposited data

Results flagged for a closer look

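For 4 noncoding transcripts limma's interaction term, the change on silencing in MDAH minus that in SKOV3 cells, passed the threshold. Each was measured in 1 line only, so the values below are fitted against signals not above background, and whether the response differed between the lines cannot be told from them. MIR99AHG differed by 4.10 (MDAH change minus SKOV3 change on the log2 scale, adjusted p = 0.0183 from limma), with a change of 0.81 in MDAH, where no array was well above background, and -3.29 in SKOV3 cells. LINC01994 differed by 3.60 (adjusted p = 0.0183 from limma), from 0.80 in MDAH, again with no array well above background, and -2.80 in SKOV3 cells. WDR11-DT differed by -2.67 (adjusted p = 0.0234 from limma), from -2.83 in MDAH and -0.16 in SKOV3 cells, where no array measured it. LOC100507053 differed by -2.56 (adjusted p = 0.0270 from limma), from -2.70 in MDAH and -0.14 in SKOV3 cells, likewise not measured there. In the line that did not measure a transcript, a fall, or a rise that stayed below background, could not have been seen. No transcript was called for this difference with normexp, with limma's trend, with the replicate block, with probes measured on all 8 arrays, without the filter on dim probes or without any single control array.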

How the results depend on the processing

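Testing only probes well above background on all 8 arrays gave 728 members called between the lines in controls, 705 in silenced cells, 29 on silencing in MDAH, 21 in SKOV3 (33.3% lower, against 73.2%), 88 in the mean of both lines and 0 for the difference of both changes. Keeping 1 probe per gene gave 721, 666, 41, 22, 77 and 7 in the same order, from fewer members tested. Without a filter on dim probes the silencing counts were 29 in MDAH, 10 in SKOV3 and 50 in the mean, the difference had 0, and the line difference in controls had 1657 calls of 3889 probes with 54.3% lower, against 34.8%. With limma's trend SKOV3 had 63 and the difference 0. Fits on the arrays compared alone gave 44 in MDAH and 0 in SKOV3. The difference had 8 calls with quantile normalization, 8 with median centring, 8 with the authors' table and 0 with normexp. The cause of these shifts was not tested. Under the alternatives, leaving out an array included, only members were counted and not all probes. Whether the shifts are particular to noncoding transcripts cannot be told from these counts. Against coding probes of like signal, all tested probes gave median percentiles of 51.6 for the residual SD, 47.3 for the line difference and 45.03 for silencing in MDAH.

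Leaving out 1 array at a time gave 844 to 1209 calls between lines in controls, 933 to 1000 in silenced cells, 0 to 146 in MDAH, 6 to 104 in SKOV3, 19 to 215 in the mean and 0 to 25 for the difference, and 0 to 7 (MDAH) and 0 to 11 (mean) called pairs of noncoding and coding probes. Control arrays of the same number share only that number, and silenced arrays of the same number share an shRNA: with 1 pair of each, their deviations correlated at 0.07 for controls and 0.35 for shRNAs across probes. With the replicate block the counts were 117 in MDAH, 80 in SKOV3, 219 in the mean and 0 for the difference, and 1236 and 1141 between the lines.

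For 187 calls of named genes, no direction turned under any alternative, but the choice of genes largely fixed this. All were called in the main fit, and many were named only because their groups did not overlap. Leaving out 1 array could not turn the direction of those. Of 1931 combinations of a call and another processing or design, 180 missed the threshold, as did 336 of 1496 with 1 array left out. Dim probes limit precision: the residual SD was 0.22 in the median of the members that all 8 arrays measured and 0.26 over all members.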
